A study of Mus musculus with 24 samples.

Results

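The 10 genes described here are the core of the YAP pathway and its best known targets: Yap1, Wwtr1 (which encodes TAZ), Tead1, Lats2, Amotl2, Ajuba, Ccn1, Ccn2, Ankrd1 and Axl. They were chosen by name, each symbol was matched to 1 of the 45706 gene identifiers of the count tables, and all 10 were found (Ccn1 is also called Cyr61, and Ccn2 is also called Ctgf). Their RNA was read in 24 mouse organoid libraries (organoids are crypts kept in Matrigel as purely epithelial cultures), 12 from the colon (COL organoids) and 12 from the small intestine (SI organoids). All cultures were on a C57BL/6N background and carried Villin::CreERT2, a Cre recombinase that is driven in intestinal epithelium by the Villin promoter and acts only when 4-hydroxytamoxifen (4-HT) is present. In addition, the BRAF cultures carried 1 conditional BraffloxV600E allele, the p53 cultures 1 conditional Trp53LSL-R172H allele, and the BRAFp53 cultures both.

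Before recombination the Braf allele encodes the normal kinase and the Trp53 allele is kept silent by a stop cassette. After it they encode BRAFV600E, which signals without an upstream input, and p53R172H, a mutant of the tumour suppressor. Organoids called "on" here received 4-HT for 24 h, and those called "off" received ethanol. The dose was 3.5 µM with RNA taken on day 3 in COL organoids, and 0.5 µM with RNA taken on day 8 in SI organoids. There were 12 groups of 2 libraries. The methods of the study name 1 donor mouse per genotype, and nothing in the sources says that the 2 libraries of a group came from separate animals, so p-values measure the spread between libraries, which may be technical. All media held EGF, Noggin and R-Spondin1, among other additions, and the medium for colonic crypts also held Wnt3a and the GSK3 inhibitor CHIR99021. Animal age is not given in the sources used here.

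YAP and TAZ are transcriptional co-activators that bind no DNA themselves and act through TEAD factors. The Hippo kinases LATS1 and LATS2 phosphorylate them and keep them out of the nucleus, angiomotins such as AMOTL2 hold them at junctions, and LIM proteins such as AJUBA restrain LATS. In the intestine the pathway is best known for its part in repair after injury and in the fetal-like state of regenerating epithelium. RNA levels say nothing directly about phosphorylation or nuclear location, which set the activity of YAP.

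Depth ranged from 51174821 to 78175143 counts in COL libraries and from 44350747 to 68214835 counts in SI libraries. A level is given as CPM, the counts scaled to a library of 1e6, and 3 counts, taken as the limit of detection, correspond to 0.0368 to 0.0572 CPM in COL and 0.0481 to 0.0878 CPM in SI libraries. Epithelial markers were high in all libraries (Epcam 359 to 651 CPM). A list of 8 fibroblast and muscle markers summed to between 0 and 1.24 CPM in every library, with Dcn and Lum at 0 counts in all 12 SI libraries. A list of 4 immune and endothelial markers, in COL libraries mostly Cd68, summed to 4.03 to 13.2 CPM in COL and 0.967 to 2.09 CPM in SI organoids. Trp53 was higher in on than in off libraries by 0.94 (COL p53), 0.94 (COL BRAFp53), 0.76 (SI p53, adjusted p = 0.194) and 0.52 (SI BRAFp53) on the log2 scale, and Braf was higher by 0.38 to 0.50 in the 4 arms with the Braf allele, where it did not pass the test. In cultures without the conditional Trp53 allele, Trp53 was lower in on libraries by edgeR (COL BRAF -0.44, adjusted p = 0.0332, and SI BRAF -0.62, adjusted p = 0.00351).

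Some cultures and 1 library stood apart, by genes that were chosen after their values were seen. Xist, the RNA of the inactive X chromosome, was at 115 to 166 CPM in the SI p53 and SI BRAFp53 libraries and at 0.0395 CPM or less in COL libraries. Y-linked Ddx3y was at 32.8 to 64.8 CPM in the COL and SI BRAF libraries and at 0.065 CPM or less in the other SI libraries, so the COL and SI cultures of the p53 and BRAFp53 genotypes differed in sex-linked RNA although the methods name 1 donor mouse per genotype. The SI BRAF on library of replicate 1 held 17.1 CPM of Xist beside 36.1 CPM of Ddx3y, against 0.234 to 0.471 CPM of Xist in the other 3 SI BRAF libraries, and called SI BRAF values of the 10 genes are given with and without it. Tissue markers differed between cultures as well. Gata4, a factor of the proximal small intestine, was at 32.1 to 49.4 CPM in the COL BRAF culture against 0.293 to 2.67 CPM in the other COL cultures, and Onecut2 was at 6.09 to 22.9 CPM in the SI BRAF culture against 126 to 209 CPM in the other SI cultures. Car1, a colonic enzyme, was at 1330 CPM or more in every COL library and at 0.267 CPM or less in every SI library.

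The RefSeq promoter windows (GRCm38.p6, 250 bases before the start) of 8 of the 10 genes were scanned on both strands for the TEAD core CATTCC, which reads GGAATG on the other strand. The letters occurred in 7 of these 8 genes, and in 12.6% of 32851 windows of the same length over all genes. Lats2 was the gene without them. The AP-1 letters TGANTCA occurred in none of the 8 genes and in 6.75% of all windows. The stretches below show the match in capitals with 12 bases on either side, 5′ to 3′ on the strand of the gene. They are given because YAP and TAZ act through TEAD factors. For Ankrd1 and Amotl2 the stretch also lies in an exon of another transcript of the same gene.
Yap1, chr9:8004720-8004749, minus strand: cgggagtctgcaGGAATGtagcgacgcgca
Wwtr1, chr3:57576029-57576058, minus strand: ggtaaactcaaaGGAATGcagataggcgct
Ccn1, chr3:145650071-145650100, minus strand: cgcgccaaccaaCATTCCtgagatgtttga
Ankrd1, chr19:36120037-36120066, minus strand: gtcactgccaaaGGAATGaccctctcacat
Ankrd1, chr19:36119950-36119979, minus strand: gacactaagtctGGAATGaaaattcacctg
Amotl2, chr9:102717727-102717756, plus strand: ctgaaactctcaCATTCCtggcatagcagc
Ajuba, chr14:54577830-54577859, minus strand: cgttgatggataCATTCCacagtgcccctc
Ajuba, chr14:54577808-54577837, minus strand: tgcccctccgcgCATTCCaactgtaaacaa
Axl, chr7:25788949-25788978, minus strand: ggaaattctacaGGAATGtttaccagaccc
Windows for Ccn2 and Tead1 were not analysed here. A match of 6 letters is a description of the sequence and does not show that a factor binds there.

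In off organoids the genes of the pathway were ordered differently in the 2 tissues. Levels of different genes were compared only per kb of exon, as the median of the 6 off libraries. In COL organoids Ccn1, a secreted matricellular protein and classical YAP target, was highest at 6.07 CPM per kb, with a range of 4.98 to 7.29. Yap1 (3.38) and Ajuba (2.99) followed with overlapping ranges, and then came Tead1 (1.48), Ccn2 (1.22), Ankrd1 (0.854), Amotl2 (0.659), Lats2 (0.568) and Wwtr1 (0.340). Neighbours from Tead1 to Wwtr1 in this order overlapped in their library ranges, whereas Ajuba (lowest library 2.40) and Tead1 (highest library 2.17) did not.

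In SI organoids Yap1 was highest at 4.03 CPM per kb and stood clear of the rest, with its lowest library at 3.52 and the highest library of any of the other 9 genes at 1.68 (Ccn1). Tead1 (0.874), Ccn1 (0.713), Ajuba (0.294), Amotl2 (0.277) and Lats2 (0.205) overlapped with their neighbours. Wwtr1 was at 0.0274 CPM per kb, below the lowest Lats2 library. The medians of Ccn2, Ankrd1 and Axl were 0. Of the 2 co-activators, Yap1 was thus well detected in both tissues, while Wwtr1 was near the limit of detection in SI organoids.

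**Figure D1:**
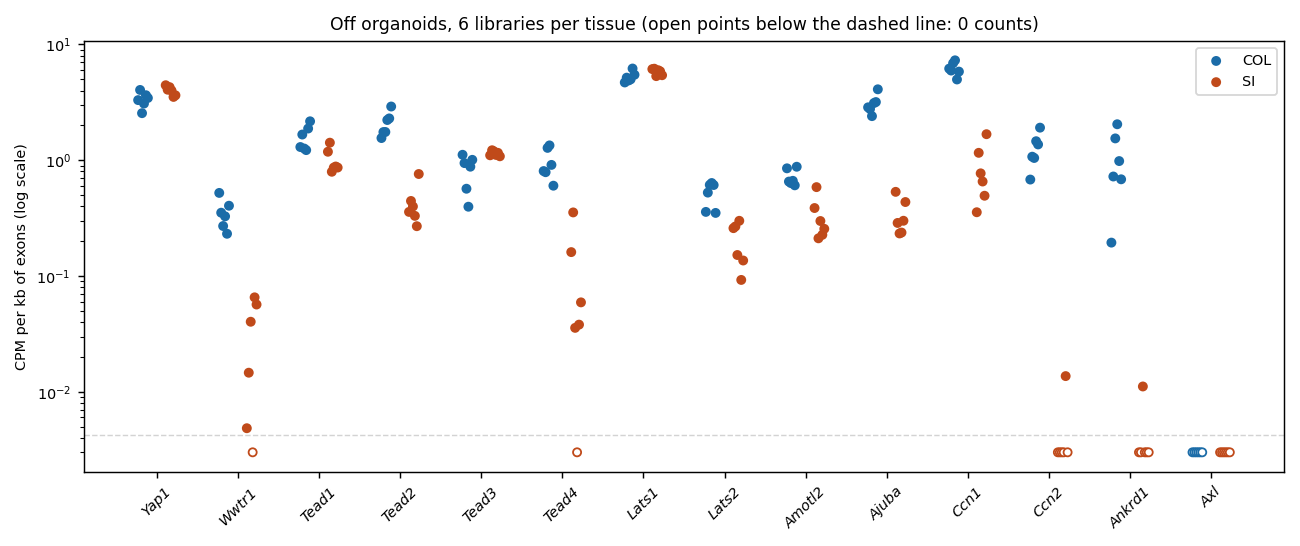
Level per kb of exon (CPM per kb, log scale) of the 10 genes and of Tead2, Tead3, Tead4 and Lats1 in the 6 off libraries of each tissue, 1 point per library, COL in blue and SI in orange; open points under the dashed line are libraries at 0 counts. The libraries of Yap1 and Lats1 overlap between the tissues, whereas Wwtr1, Ajuba, Amotl2, Lats2, Ccn1, Ccn2 and Ankrd1 lie lower in SI libraries without overlap.

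The comparison of off organoids asked how the pathway differed between colon and small intestine before any allele was switched. Counts were summed over the 2 off libraries of each culture, which gave 3 cultures against 3, and tested across all genes with the quasi-likelihood test of edgeR (adjusted p by Benjamini-Hochberg, called under 0.05). Of the 9 genes tested, 7 were higher in COL and 0 in SI organoids, against 29.6% of all 17789 genes called in either direction and 17% called higher in COL. Their median log2 difference was 2.86, and that of all genes was 0.08. Medium and day of isolation also differed between the tissues, and their part in these differences cannot be told apart from that of the tissue. Off libraries of both tissues received no 4-HT. Between the tissues, the p53 and BRAFp53 cultures differed in which sex-linked RNA they held, Xist or Ddx3y, whereas both BRAF cultures held Ddx3y. Its level was 54.8 and 60 CPM in COL BRAF off and 39.7 and 32.8 CPM in SI BRAF off libraries. The part of sex-linked RNA in these differences was not tested.

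Of the genes tested, Ccn2 and Ankrd1 differed most. Ccn2, which encodes the matricellular protein CTGF, was at 1.95 and 3.07 CPM in COL BRAF off, 2.99 and 4.18 in COL p53 off and 3.92 and 5.47 in COL BRAFp53 off libraries. In the 6 SI off libraries it had 2 counts in all, both in 1 SI BRAFp53 library, against 1547 counts in COL. All COL libraries lay above all SI libraries, and the ratio of scaled counts was 589 (95% interval 163 to 4872, which covers counting error only), adjusted p = 0.00146. With 3 counts, the limit of detection, set in every SI off library, the ratio was 65.5. Ankrd1, a nuclear ankyrin repeat protein known from muscle, had 1296 counts in COL and 2 counts in SI off libraries, a ratio of 494 (136 to 4082), adjusted p = 0.00258. Against the same limit its ratio was 54.9.

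Ankrd1 also differed among COL cultures. Its off level was 0.561 and 2.09 CPM in COL BRAF, 4.46 and 5.90 in COL p53 and 2.84 and 1.98 in COL BRAFp53 libraries. The COL p53 libraries were thus the highest and did not overlap with the others, whereas the 2 COL BRAF libraries lay on either side of the lower COL BRAFp53 library. Ccn1 was more even, at 10.1 to 14.7 CPM in the 6 COL off libraries and 0.718 to 3.39 in the 6 SI off libraries, a log2 difference of 2.86 ± 0.25 (SE, 3 cultures per tissue), adjusted p = 0.0012.

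Wwtr1 was at 1.11 to 2.5 CPM in COL and at 0 to 0.313 CPM in SI off libraries, 719 against 47 counts, with a log2 difference of 3.55 ± 0.67 and adjusted p = 0.00936. Ajuba was at 8.77 to 14.9 CPM in COL and at 0.850 to 1.94 CPM in SI off libraries, a log2 difference of 3.24 ± 0.28 with adjusted p = 0.0012. Neither gene overlapped between the tissues in any library.

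Lats2 and Amotl2, which restrain YAP and are also induced by it, differed less. Lats2 was at 2.44 to 4.43 CPM in COL and 0.645 to 2.09 in SI off libraries (log2 difference 1.38 ± 0.38, adjusted p = 0.0338), and Amotl2 at 3.82 to 5.53 against 1.33 to 3.68 (1.14 ± 0.35, adjusted p = 0.0462). Both are near the threshold. The Lats2 call was lost in 4 of 6 fits that left out 1 culture and the Amotl2 call in 5 of 6, with adjusted p up to 0.0937 and 0.157. Both calls were also lost with the genotype as a block (0.0568 and 0.0605), which left 5 genes called, and that of Amotl2 without the filter on low counts (0.0538).

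Yap1 and Tead1 were not called. Yap1 was at 23.6 to 37.5 CPM in COL and 32.6 to 41.1 in SI off libraries, with overlap and a log2 difference of -0.23 ± 0.15 (adjusted p = 0.279). Tead1, a TEAD factor, was at 16.6 to 29.4 CPM in COL and 10.8 to 19.2 in SI off libraries, a log2 difference of 0.67 ± 0.26 (adjusted p = 0.0879), and it was called only without the SI BRAF culture (0.91, adjusted p = 0.0462). Axl, a receptor tyrosine kinase, had 0 counts in all 12 off libraries, which allows at most 0.0695 CPM in any of them.

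Among the paralogs, Lats1 was higher than Lats2 per kb in both tissues (medians of 5.08 and 5.93 CPM per kb in COL and SI) and did not differ between them by the test (log2 difference -0.13 ± 0.12, adjusted p = 0.462). Tead3 was at 0.912 and 1.13 CPM per kb and was also not called (-0.46 ± 0.30, adjusted p = 0.283). Tead2 was higher in COL by 2.30 ± 0.26 (adjusted p = 0.00231) and Tead4 by 3.12 ± 0.93 (adjusted p = 0.0427). The median Tead4 level was 0.859 CPM per kb in COL and 0.0486 in SI organoids.

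**Figure D2:**
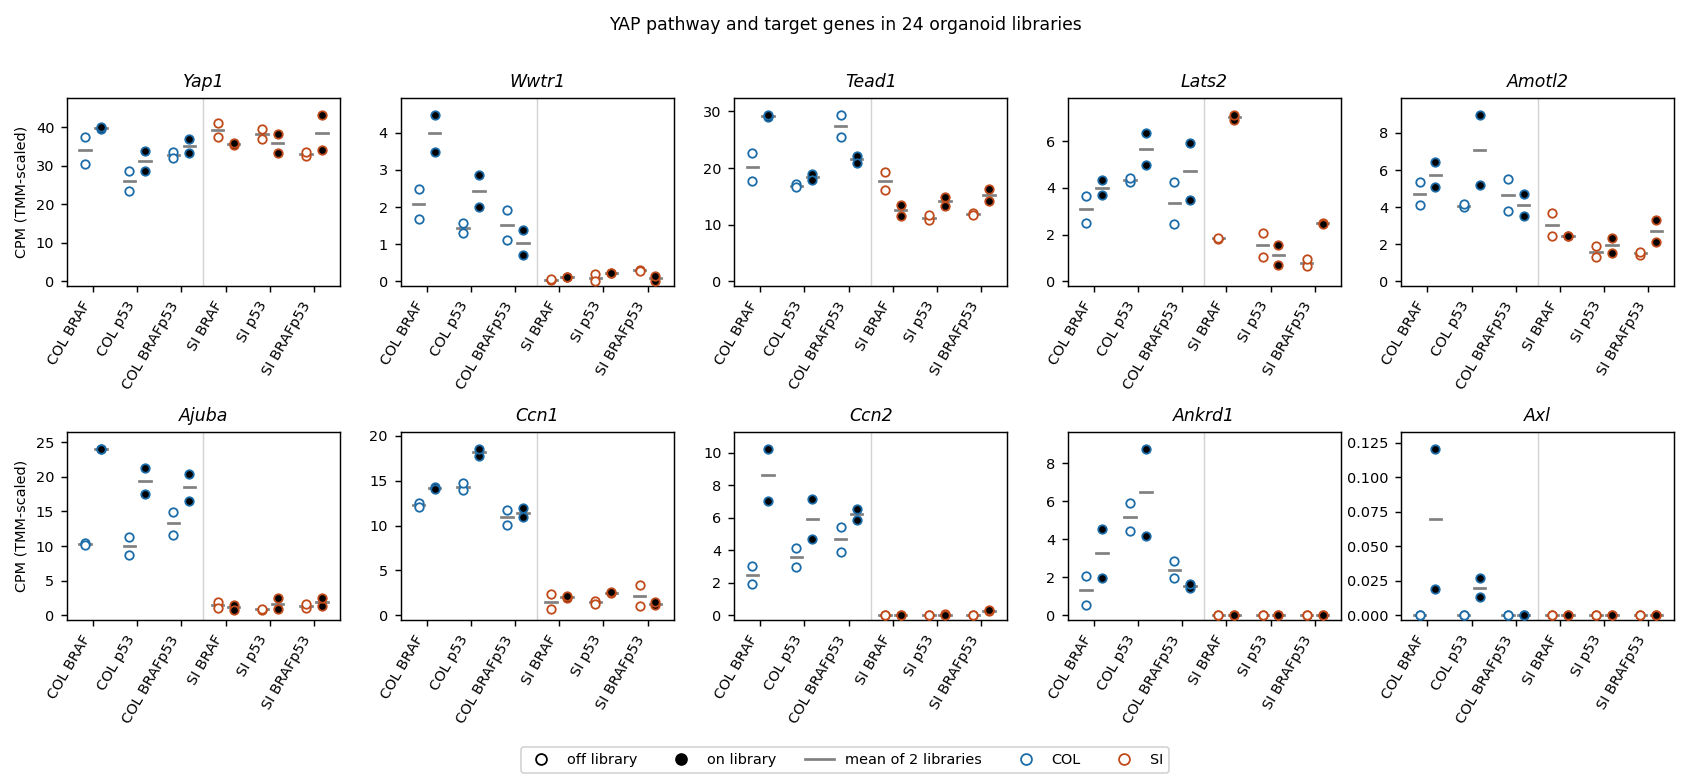
CPM (scaled by TMM over all 24 libraries) of each gene in the 12 groups, with 1 open point per off library, 1 filled point per on library and a bar at the mean of the 2, and with a separate vertical scale for each gene. Ajuba, Ccn2 and Tead1 rise in COL BRAF on libraries, Lats2 rises in SI BRAF and SI BRAFp53 on libraries, and Axl does not exceed 0.121 CPM.

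Induction was tested on against off within each culture, in 1 fit per tissue of 12 libraries that share an estimate of the spread. Shares of all genes called are those of edgeR after adjustment, and none was taken for unadjusted p, DESeq2 or limma-voom. In COL BRAF organoids 3 of 9 tested genes rose and none fell, against 19.9% of all 18972 genes called and 10.3% called higher. The median log2 fold change of the 9 genes was 0.53, all 9 values were positive, and the median of all genes was -0.01. Both on libraries lay above both off libraries for 7 of the 9 genes, as they did for 29.5% of all genes.

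Ajuba rose in COL BRAF organoids from 10.4 and 10.1 CPM off to 24.0 and 24.0 CPM on, a log2 fold change of 1.22 ± 0.19 (standard error of the fit, as for all log2 fold changes; adjusted p = 0.00114). Ccn2 rose from 1.95 and 3.07 to 10.3 and 7.02 CPM, a log2 fold change of 1.78 ± 0.33 (adjusted p = 0.00286). The 2 states did not overlap for either gene, and each passed in every fit that left out 1 library and under every other setting tried.

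Tead1 rose in COL BRAF organoids from 17.6 and 22.6 to 29.0 and 29.4 CPM, a log2 fold change of 0.53 ± 0.15 (adjusted p = 0.0253). The states did not overlap, but the call was lost without either on library (adjusted p = 0.104 and 0.111) and without off replicate 1 (0.36, adjusted p = 0.226). The remaining genes did not pass the test. Wwtr1 went from 2.5 and 1.68 to 4.49 and 3.49 CPM (0.93 ± 0.41, adjusted p = 0.141). Ankrd1 went from 0.561 and 2.09 to 4.57 and 1.96 CPM (1.30 ± 0.57, adjusted p = 0.139), with overlap of the states, and it was called without off replicate 2 (2.54, adjusted p = 0.0229) and, with all libraries, without the filter on low counts (1.29, adjusted p = 0.00431). Yap1 (0.23), Ccn1 (0.20), Lats2 (0.37) and Amotl2 (0.28) had log2 fold changes of at most 0.37 with adjusted p of 0.326 or more.

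Axl was removed by the filter on low counts. It had 8 counts and 1 count in the 2 COL BRAF on libraries, 2 counts and 1 count in the COL p53 on libraries, and 0 counts in all other libraries. Only the library with 8 counts (0.121 CPM) exceeded the limit of detection.

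In COL p53 organoids none of the 9 genes was called by edgeR, where 0.142% of all genes were. An unadjusted p under 0.05 was reached by 4 of them, and DESeq2 called 1 and limma-voom 0. Ajuba came nearest, at 8.77 and 11.4 CPM off and 21.3 and 17.5 CPM on, a log2 fold change of 0.93 ± 0.19 with adjusted p = 0.117, and it was the gene called by DESeq2 (0.94, adjusted p = 0.00076). Amotl2 (3.99 and 4.18 off, 8.99 and 5.20 on), Ccn2 (2.99 and 4.18 off, 7.17 and 4.69 on) and Ccn1 (13.9 and 14.7 off, 17.8 and 18.6 on) were the others with an unadjusted p under 0.05. Both on libraries lay above both off libraries for 8 of the 9 genes, against 21.3% of all genes, and the median log2 fold change was 0.36 against 0.00 for all genes. As in COL BRAF organoids, all 9 log2 fold changes were positive.

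COL BRAFp53 organoids showed no call among the 9 genes either, against 17.7% of all genes. An unadjusted p under 0.05 was reached by 2 genes, Ajuba and Tead1, and DESeq2 and limma-voom called 0. Ajuba was at 11.6 and 14.9 CPM off and 20.4 and 16.5 CPM on, without overlap, with a log2 fold change of 0.48 ± 0.19 (adjusted p = 0.108). Tead1 was at 25.5 and 29.4 CPM off and 22.2 and 20.9 CPM on, a log2 fold change of -0.35 ± 0.15 (adjusted p = 0.131). Here 5 of 9 log2 fold changes were positive, and their median was 0.07 (-0.04 over all genes).

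The difference between the BRAFp53 and the BRAF response was tested directly in COL organoids, and none of the 9 genes was called, against 0.907% of all genes. An unadjusted p under 0.05 was reached by 5 of them, and DESeq2 called 2 and limma-voom 0. No share of all genes was taken for these counts. The values were negative for 8 of the 9 genes, the exception being Lats2 (0.12). Their median was -0.74, against -0.03 for all genes. The COL BRAF and COL BRAFp53 cultures also differed in Gata4, and the part of this difference cannot be told apart from that of the p53 allele. Tead1 differed by -0.88 ± 0.21 (adjusted p = 0.0663), and it passed with DESeq2 (adjusted p = 0.0041), without the filter on low counts (0.0248) and with at least 10 counts required in every library (0.0444). Ccn2 differed by -1.38 ± 0.45 (adjusted p = 0.136), and it passed with DESeq2 (0.0445) and without the filter (0.0306). Ajuba differed by -0.74 ± 0.27 (0.171), Wwtr1 by -1.49 ± 0.59 (0.200) and Ankrd1 by -1.94 ± 0.80 (0.220), and of these Ankrd1 passed without the filter (0.00967). The summed immune and endothelial markers were also higher in on libraries of all 3 COL cultures, from between 4.53 and 4.75 to between 7.59 and 8.73 CPM in COL BRAF, from between 5.85 and 6.93 to between 7.41 and 9.51 CPM in COL p53 and from between 4.03 and 4.39 to between 11.3 and 13.2 CPM in COL BRAFp53 organoids. A list of 7 epithelial markers summed to between 10200 and 11000 CPM off and between 23900 and 25500 CPM on in COL BRAF organoids, and to between 10500 and 11000 CPM off and between 24300 and 29800 CPM on in COL BRAFp53 organoids. It was also higher on than off in COL p53 (18800 off, 19500 to 27500 on), SI BRAF (11100 to 11300 off, 18600 to 21100 on) and in SI BRAFp53 organoids (9710 to 10400 off, 14600 to 14800 on). The part of these markers in the changes described here was not tested.

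**Figure D3:**
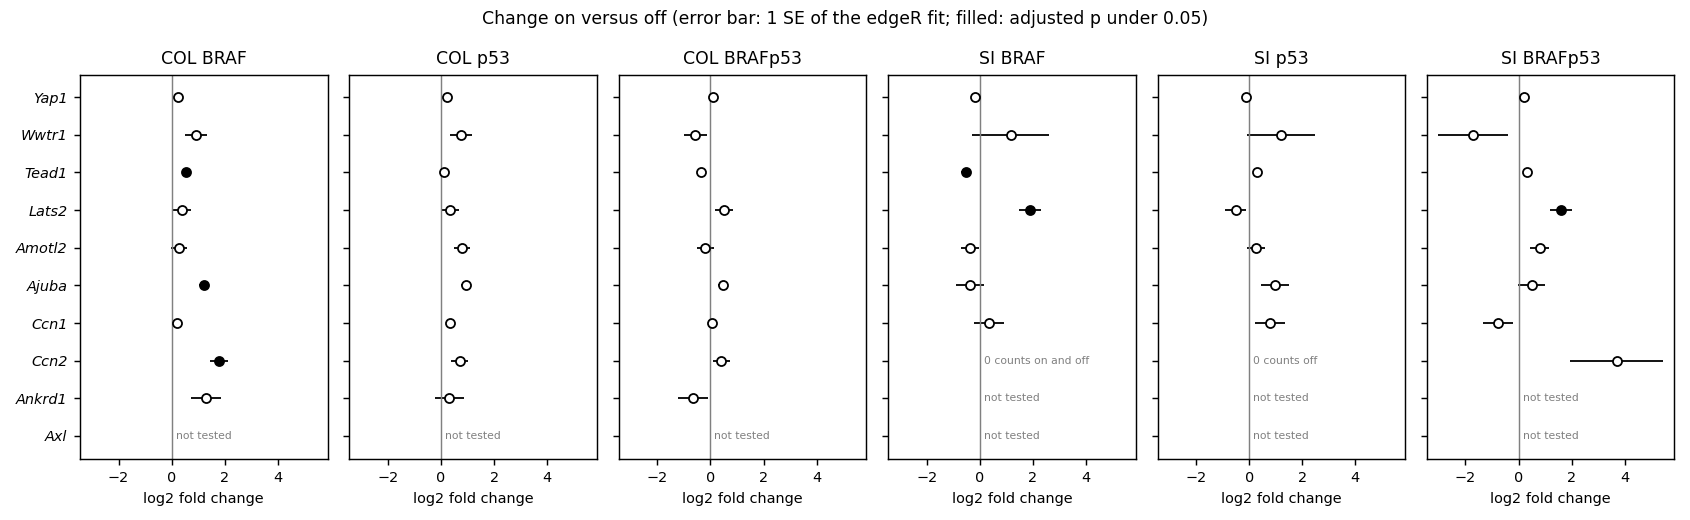
Log2 fold change on versus off (horizontal axis) of each gene in the 6 cultures, as fitted by edgeR, with 1 standard error; filled points have an adjusted p under 0.05, and genes removed by the filter or at 0 counts are written as such. In COL BRAF and in COL p53 all 9 points lie to the right of 0, with 3 filled in COL BRAF and none in COL p53. In SI BRAF Lats2 is filled on the right and Tead1 on the left.

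In SI organoids 8 of the 10 genes were tested, since Ankrd1 and Axl were removed by the filter. Ankrd1 had at most 2 counts in any SI library. In SI BRAF organoids Lats2 rose and Tead1 fell, 2 of 8 genes against 31.7% of all 16856 genes, a share below that of all genes. The median log2 fold change was -0.19 without Ccn2, which had 0 counts in all 4 libraries, against -0.06 for all genes.

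Lats2, a kinase that restrains YAP and is itself a YAP target, went from 1.81 and 1.87 CPM off to 6.90 and 7.14 CPM on in SI BRAF organoids. The log2 fold change was 1.89 ± 0.40 (adjusted p = 0.00298), and without the on library that held Xist it was 1.92 ± 0.48 (adjusted p = 0.00731). The on libraries were above every other library of the study, the highest of which was a COL p53 on library at 6.34 CPM. In SI BRAFp53 organoids Lats2 rose from 0.645 and 0.949 to 2.51 and 2.46 CPM (1.60 ± 0.42, adjusted p = 0.0251). That call was lost when any 1 of its 4 libraries was left out, with log2 fold changes of 1.34 to 1.92 and adjusted p of 0.0601 to 0.176. In SI p53 organoids Lats2 was at 1.06 and 2.09 CPM off and 0.682 and 1.55 CPM on, with overlap (-0.51 ± 0.41, adjusted p = 1). Exons of Lats2 overlap those of Gm49361 on the same strand, so reads in the shared part may be counted elsewhere or not at all.

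Tead1 fell in SI BRAF organoids, from 16.1 and 19.2 to 13.6 and 11.6 CPM, a log2 fold change of -0.53 ± 0.16 (adjusted p = 0.0233). Without the on library that held Xist the value was -0.65 ± 0.20 (adjusted p = 0.0240), whereas the call was lost without the other on library (-0.42, adjusted p = 0.158) and without off replicate 2 (-0.39, adjusted p = 0.194). The off libraries of this culture were the highest of the SI off libraries, and the on libraries lay within the range of SI p53 and SI BRAFp53 libraries (10.8 to 16.2 CPM). Tead1 was not called in SI p53 (10.8 and 11.7 off, 14.9 and 13.3 on, 0.31 ± 0.16, adjusted p = 0.983) or in SI BRAFp53 organoids (12 and 11.7 off, 14.2 and 16.2 on, 0.33 ± 0.16, adjusted p = 0.240), although in both cultures the on libraries lay above the off libraries.

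In SI p53 organoids edgeR called none of the 8 genes, and 0% of all genes. No member had an unadjusted p under 0.05, and DESeq2 and limma-voom called 0. In SI BRAFp53 organoids Lats2 was the 1 gene of 8 called, against 11.5% of all genes, and the median log2 fold change of the 8 genes was 0.41 (-0.03 over all genes). Amotl2 (1.43 and 1.61 off, 3.31 and 2.12 on) had a log2 fold change of 0.80 ± 0.35 (adjusted p = 0.178).

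Ccn2 was read in SI organoids mainly after induction of both alleles. It had 13 and 18 counts (0.268 and 0.306 CPM) in the SI BRAFp53 on libraries and 2 and 0 counts in the off libraries, a ratio of 14.8 with a 95% counting interval of 3.77 to 128, and it did not pass the test (adjusted p = 0.231). It had 5 and 0 counts in SI p53 on libraries and 0 counts in SI p53 off and in all SI BRAF libraries. Even the SI BRAFp53 on level was below the lowest COL library (1.95 CPM). Wwtr1 had between 0 and 16 counts in every SI library, and its direction differed between SI cultures with no call.

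Ccn1 and Ajuba were low in SI organoids and were called in no SI culture. Ccn1 was at 0.718 and 2.34 CPM off and 1.91 and 2.14 CPM on in SI BRAF, and at 0.997 and 3.39 CPM off and 1.11 and 1.5 CPM on in SI BRAFp53 organoids, with overlap in both. In SI p53 organoids Ccn1 was at 1.56 and 1.32 CPM off and 2.45 and 2.59 CPM on, without overlap (0.79 ± 0.55, adjusted p = 1). Ajuba was at 1.94 and 1.05 CPM off and 1.49 and 0.849 CPM on in SI BRAF organoids (-0.38 ± 0.52, adjusted p = 0.629), and the value was -0.85 without the on library that held Xist. In SI p53 organoids Ajuba was at 0.850 and 0.865 CPM off and 2.45 and 0.960 CPM on, also without overlap (0.97 ± 0.52, adjusted p = 0.988). Yap1 had log2 fold changes between -0.19 and 0.23 over the 6 cultures and was called in none of them (adjusted p from 0.326 upward), and its 24 libraries spanned 23.6 to 43.3 CPM.

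Ccn2 had 0 counts in all SI BRAF libraries, so its BRAFp53 and BRAF responses could not be compared in SI organoids. The SI BRAF and SI BRAFp53 cultures also differed in sex-linked RNA and in Onecut2. The part of these differences cannot be told apart from that of the p53 allele. Between the BRAFp53 and the BRAF response of SI organoids, Tead1 differed by 0.86 ± 0.23 (adjusted p = 0.0365), 1 of 8 genes against 8.2% of all genes. It was 0.99 ± 0.25 (adjusted p = 0.0225) without the SI BRAF on library that held Xist, and the call was lost in 6 of 8 fits that left out 1 library, with adjusted p up to 0.159.

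A fit of all 24 libraries compared the responses between tissues. Ccn2 and Ankrd1 had 0 counts in all SI BRAF libraries, so the fit could not call a tissue difference in their BRAF responses. The same held for Ankrd1 in SI BRAFp53 organoids. For BRAF, Tead1 was the 1 gene of 9 called, against 10.7% of all genes, with a response that was higher in COL than in SI organoids by 1.03 ± 0.21 on the log2 scale (adjusted p = 0.00306) and by 1.15 ± 0.24 (adjusted p = 0.00419) without the SI BRAF on library that held Xist. Ajuba (1.54 ± 0.53, adjusted p = 0.0738) and Lats2 (-1.55 ± 0.55, adjusted p = 0.0805) pointed in opposite directions and did not pass, though both passed with DESeq2 (0.0266 and 0.0436). Without the SI BRAF on library that held Xist the values were 2.03 for Ajuba (adjusted p = 0.0522) and -1.57 for Lats2 (adjusted p = 0.137). For p53, none of 9 genes was called by edgeR (0.117% of all genes), none had an unadjusted p under 0.05, and DESeq2 and limma-voom called 0. For BRAFp53, none of 9 was called by edgeR (3.52% of all genes), 3 had an unadjusted p under 0.05, and DESeq2 called 2, Tead1 (-0.66, adjusted p = 0.0326) and Ccn2, and limma-voom 0. Dose and day of isolation differed between the tissues, which cannot be told apart from a tissue difference in response.

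The other genes of a published YAP/TAZ target signature, 16 genes, were read from the same fits. In COL BRAF organoids 8 of 15 tested genes rose and 1 fell, with a median log2 fold change of 1.16. In COL BRAFp53 organoids 4 rose and 1 fell (median 0.00), in SI BRAF organoids 5 of 13 rose and 1 fell (median -0.16), in SI BRAFp53 organoids 5 rose (median 1.03), and in both p53 cultures none was called by edgeR, DESeq2 or limma-voom, with 0 (COL) and 3 (SI) genes at an unadjusted p under 0.05. Of the signature genes tested, 60% were called in COL BRAF, 33.3% in COL BRAFp53, 46.2% in SI BRAF and 38.5% in SI BRAFp53 organoids. The shares of all genes called were 19.9%, 17.7%, 31.7% and 11.5% in the same order.

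F3, Dock5 and Asap1 were called higher in all 4 cultures with the Braf allele, which held for none of the 10 genes. The share of all genes called in all 4 of these cultures was not taken. F3, the receptor that starts blood coagulation, was at 122 ± 2.8 CPM (SD, n = 2) off and 678 ± 116 CPM on in COL BRAF organoids, a log2 fold change of 2.47. In SI BRAF organoids it was at 5.79 ± 1.0 CPM off and 31.3 ± 5.5 CPM on (2.39). In BRAFp53 organoids its log2 fold change was 2.89 in COL and 1.89 in SI, and in p53 organoids it was 0.32 and -0.08. Dock5, an activator of Rac, had log2 fold changes of 1.16 and 1.07 in the COL BRAF and COL BRAFp53 cultures and of 1.17 and 0.70 in the SI BRAF and SI BRAFp53 cultures. For Asap1, a regulator of Arf GTPases, they were 1.55, 0.87, 2.87 and 1.16 in the same order. Asap1 lost its call in COL BRAFp53 organoids without either first replicate (adjusted p up to 0.171) and in SI BRAFp53 organoids in 3 of 4 such fits (up to 0.154).

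Other large changes were those of Igfbp3 (3.51) and Fjx1 (3.17) in COL BRAF and Nt5e in COL BRAF (2.57) and SI BRAF (4.48), where Nt5e went from 0.0727 ± 0.070 to 1.81 ± 0.46 CPM. Of the 4 fits that left out 1 library, the Fjx1 call was lost in 3 (adjusted p up to 0.138), the COL BRAF call of Nt5e in 2 (up to 0.142) and its SI BRAF call in 1 (without off replicate 1, 0.0818), whereas that of Igfbp3 was lost in none. Myof, a membrane repair protein, rose in COL BRAF (1.95) and COL BRAFp53 organoids (1.40). In SI BRAFp53 organoids Myof was called on 1 and 2 counts off against 24 and 29 counts on, and this call was lost in all 4 fits that left out 1 library (adjusted p of 0.0816 to 0.184). Rbms3, an RNA-binding protein, fell in COL BRAFp53 organoids from 24.5 ± 1.3 to 9.0 ± 2.4 CPM (-1.44 ± 0.25, adjusted p = 0.00209), a call that was lost in none of these fits. It also fell in COL BRAF organoids (-0.85, adjusted p = 0.0303), where the call was lost in all 4. In the BRAF response of COL less that of SI, edgeR called 6 of 15 signature genes (4 higher in COL), DESeq2 7 and limma-voom 1, against 10.7% of all genes by edgeR. Without the SI BRAF on library that held Xist, F3 (2.56), Dock5 (1.25), Asap1 (2.99) and Nt5e (4.73) kept their SI BRAF calls.

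Among 31 further components of the Hippo pathway, of which Ptpn14 is also in the signature, 9 of 28 tested rose and 1 fell in COL BRAF organoids (median log2 fold change 0.35), 3 rose and 2 fell in COL BRAFp53 (-0.07), 3 of 29 rose and 3 fell in SI BRAF (-0.16) and 2 rose and 1 fell in SI BRAFp53 organoids (-0.05, or -0.04 without 1 gene at the limit of detection in both states). These calls were 35.7% of the components tested in COL BRAF, 17.9% in COL BRAFp53, 20.7% in SI BRAF and 10.3% in SI BRAFp53 organoids, against 19.9%, 17.7%, 31.7% and 11.5% of all genes, so the share in SI BRAF organoids lay below that of all genes. In both p53 cultures edgeR, DESeq2 and limma-voom called none, with 5 (COL) and 1 (SI) at an unadjusted p under 0.05. Amot, an angiomotin that binds YAP, fell in all 4 cultures with the Braf allele. Its mean was 28.4 ± 0.41 CPM off and 16.5 ± 1.2 CPM on in COL BRAF (log2 fold change -0.78), and 44.1 ± 2.1 off and 23.7 ± 4.5 on in COL BRAFp53 organoids (-0.90). It was 42.5 ± 0.71 off and 19.3 ± 0.42 on in SI BRAF (-1.18), and 32.9 ± 4.5 off and 21.2 ± 0.91 on in SI BRAFp53 organoids (-0.67). In p53 organoids Amot was at 27.7 ± 0.14 off and 27.9 ± 0.29 on in COL and at 30.7 ± 3.4 off and 31.2 ± 1.7 on in SI. The SI BRAFp53 call was lost without on replicate 2 or off replicate 2 (adjusted p = 0.0659 and 0.0862).

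The related Amotl1 was called higher in the same 4 cultures, but the calls were lost in 13 of 16 fits that left out 1 library (adjusted p up to 0.181), against 2 of 16 for Amot. It was at 21.5 ± 0.20 CPM off and 33.1 ± 3.5 on in COL BRAF (0.62), and 21 ± 0.76 off and 30.5 ± 1.0 on in COL BRAFp53 organoids (0.54). In SI organoids it had 0 counts in the off libraries of both cultures against 6 and 29 counts in SI BRAF and 11 and 43 counts in SI BRAFp53 on libraries. The SI BRAF call of Amotl1 was among those lost without the on library that held Xist (adjusted p = 0.0760). Amotl2 was called in no culture. Wwc1, which encodes the LATS activator KIBRA, rose in COL BRAF (1.05), SI BRAF (1.29) and SI BRAFp53 organoids (0.90). Wtip, a LIM protein of the Ajuba family, fell in SI BRAF organoids from 0.971 ± 0.66 to 0.229 ± 0.12 CPM (-2.08 ± 0.68, adjusted p = 0.0326), a call that was lost in 2 of 4 fits that left out 1 library (adjusted p up to 0.299) and with limma-voom (0.0894).

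Of the TEAD factors, Tead4 had the largest called changes. It rose from 2.87 ± 0.046 CPM off to 16.9 ± 2.1 on in COL BRAF (log2 fold change 2.56 ± 0.23, adjusted p = 3.1e-05) and from 2.72 ± 0.79 off to 11.2 ± 1.7 on in COL BRAFp53 organoids (2.05 ± 0.22, adjusted p = 0.000153). It was at 0.175 ± 0.054 CPM off and 1.05 ± 0.21 CPM on in SI BRAFp53 organoids (2.52 ± 0.92, adjusted p = 0.102), where it passed with DESeq2 (0.0334) and without the filter on low counts (0.0078), and it was not called in the other 3 cultures. Tead2 fell in COL BRAFp53 organoids (-0.92 ± 0.23, adjusted p = 0.0175), a call that was lost in 3 of 4 fits that left out 1 library (adjusted p up to 0.121). In SI BRAF organoids Tead2 was not called (-1.38 ± 0.53, adjusted p = 0.0616), but it passed with DESeq2 (0.0449) and without the on library that held Xist (-1.99, adjusted p = 0.0384). Tead3 and Lats1 were called in no culture. Vgll3, a TEAD cofactor, rose in COL BRAF organoids from 0.424 ± 0.11 to 3.33 ± 1.4 CPM (2.96, adjusted p = 0.00138).

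**Figure D4:**
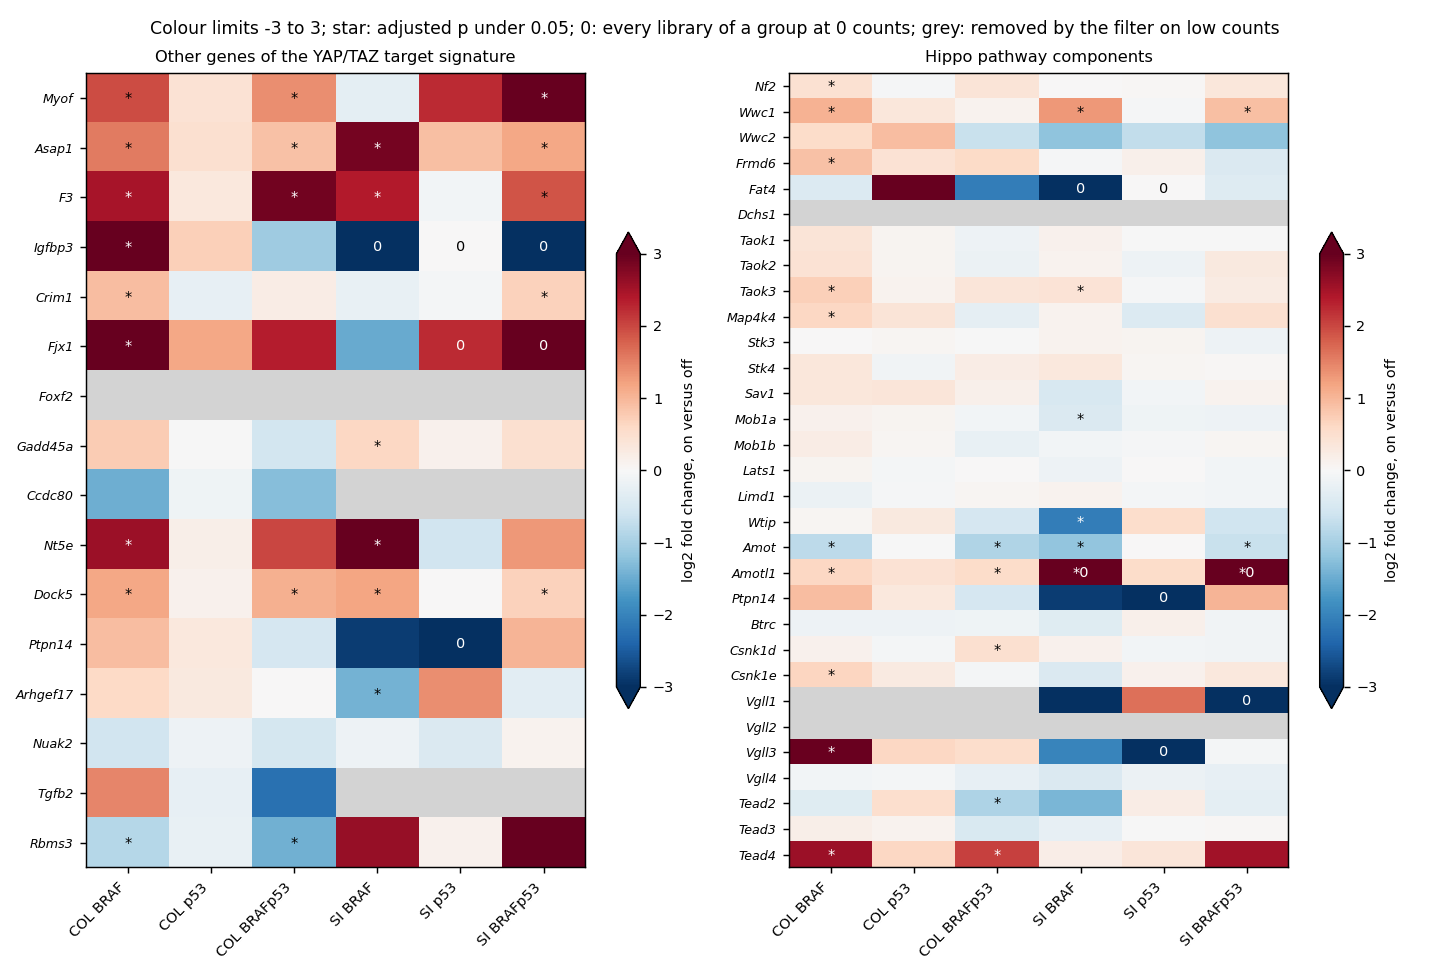
Log2 fold change on versus off (colour, limited to -3 to 3) of the other signature genes on the left and of the Hippo components on the right in the 6 cultures; a star marks an adjusted p under 0.05, a 0 marks a group at 0 counts in every library, where the colour depends on the fit, and grey marks genes removed by the filter. F3, Dock5 and Asap1 carry stars with rising values, and Amot with falling values, in the 4 cultures with the Braf allele, and the p53 columns carry none.

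The genes most like each of the 8 genes tested in both tissues were found by Pearson correlation of log2 CPM (0.5 added) less the off mean of the culture, over the 12 on libraries and 10017 genes. These are descriptions over libraries that share cultures and depth. The highest were Mt2 for Ccn1 (0.966), Pmepa1 for Ccn2 (0.933), Calr for Lats2 (0.931), Kmt2a for Tead1 (0.930), Mob1a for Ajuba (0.929), Zbtb20 for Wwtr1 (0.928), Imp3 for Yap1 (0.915) and Snrnp70 for Amotl2 (0.871).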

How the data were processed

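RNA of 24 organoid libraries (12 groups of 2) was sequenced as paired-end reads, which the authors trimmed with Trimmomatic 0.36, aligned to mm10 and counted per gene with STAR 2.5.2b. The submitters' notes list mm9 beside mm10, the annotation and strand setting are not given in the sources used here, and overlapping opposite-strand genes (for Yap1 and Ccn2) may share reads. The deposited values are raw counts per gene. Symbols came from GENCODE M21, with 563 of 45706 identifiers unmatched.

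Counts were scaled by TMM, filtered with filterByExpr and fitted with edgeR 4.0.16 (quasi-likelihood, R 4.3.3), 12 libraries per tissue, all 24 for differences between tissues, and 3 summed off cultures per tissue. The study used limma; edgeR was chosen because the values are counts. A call means a p under 0.05 after Benjamini-Hochberg adjustment over all tested genes. Levels are CPM from a TMM scaling of all 24 libraries. The standard error is the absolute log2 fold change divided by the square root of F.

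The 10 genes, the gene lists and tests were chosen with earlier results of these data known. Named beyond the 10 are their paralogs, list genes called in all 4 cultures with the Braf allele, up to 3 called genes per list and culture by size of change, and the most correlated genes. Scripts were tested on simulated data. Replicates of a group differed by more than sampling noise (chi-square per degree of freedom 20.5 to 92.4). Alternatives were RLE size factors, other filters, DESeq2 1.42.0, limma-voom 3.58.1, a replicate or genotype block, a log2 fold change of at least 1, and leaving out each library or culture.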

Additional observations from a re-analysis of the deposited data

Results flagged for a closer look

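The responses of Tead1 differed between cultures. By the contrast of the joint fit of edgeR, the BRAF response in COL less that in SI organoids was 1.03 (adjusted p = 0.00306), and by the contrast within SI organoids the BRAFp53 response less the BRAF response was 0.86 (adjusted p = 0.0365), a call that was lost in 6 of 8 fits that left out 1 library. Without a test of the difference, both on libraries of Tead1 lay below both off libraries in COL BRAFp53 organoids and above them in COL p53 organoids, a difference of -0.46 on the log2 scale. The same held for SI BRAF (below) and SI p53 organoids (above), a difference of -0.84. Wwtr1 moved down in both SI BRAFp53 on libraries and up in both SI p53 on libraries, a difference of -2.92 that was not tested and that rests on at most 16 counts per library. In COL p53 organoids both on libraries lay above both off libraries for 21.3% of all genes. The share of all genes that separate in opposite directions between cultures was not taken, so these untested patterns have no baseline.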

How the results depend on the processing

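No value changed direction while called. Counts of the 10 genes called moved by over 1.5 times as follows: without the filter on low counts to 1 (COL p53), 3 (COL BRAFp53 less BRAF), 3 (BRAF, COL less SI) and 1 (BRAFp53, COL less SI); with at least 10 counts in every library to 1 (COL BRAFp53 less BRAF), 2 (BRAF, COL less SI) and 4 (off COL against off SI); and with DESeq2 to 1, 2, 3 and 2 in the order first given. Smaller moves without the filter were to 4 in COL BRAF and to 6 in off COL against off SI. With a log2 fold change of at least 1, the count was 1 in SI BRAF and 0 in SI BRAFp53 less BRAF.

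Replicate numbers were shared by on and off libraries, but deviations of same-numbered libraries correlated only between -0.0605 and 0.0843. Nothing in the sources says whether the numbers mark a shared batch. With the replicate block the count was 1 in SI BRAF, 0 in SI BRAFp53 less BRAF and 3 in BRAF, COL less SI. The block ended the calls of Tead1 in SI BRAF (adjusted p = 0.0521) and in SI BRAFp53 less BRAF (0.0848). Leaving out 1 library gave 2 to 4 (COL BRAF), 1 to 2 (SI BRAF), 0 (SI BRAFp53), 0 to 1 (SI BRAFp53 less BRAF) and 1 to 2 (BRAF, COL less SI).

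Counts of signature genes moved to 8 (COL BRAFp53, no filter) and 3 (SI BRAFp53, log2 fold change of at least 1), and without 1 library to 3 to 5 (SI BRAF) and 2 to 3 (SI BRAFp53). Counts of Hippo components moved to 3, 1 and 1 (COL BRAF, COL BRAFp53 and SI BRAFp53, log2 fold change of at least 1), 8 and 5 (COL BRAFp53 and SI BRAFp53, DESeq2) and 6 (SI BRAFp53, no filter), and without 1 library to 6 to 8 (COL BRAF), 3 to 4 (COL BRAFp53), 3 to 7 (SI BRAF) and 1 to 3 (SI BRAFp53). Beyond the smaller number of samples in fits without a library, the cause was not tested. Of values of single genes, 1139 stayed called or stayed uncalled, 31 gained a call and 13 lost it under settings that used every library. With 1 library or culture left out, 916 stayed called or stayed uncalled, 7 gained a call and 63 lost it. Another 29 uncalled values changed sign by more than their standard error. The values that stayed include those never called, so these counts do not give the share of calls kept. The replicate block ended the calls of Amotl1 in all 4 cultures (adjusted p up to 0.0894), of Asap1 in COL BRAFp53 (0.0657) and of Myof in SI BRAFp53 (0.0587), and the genotype block those of Lats2 and Amotl2 between off COL and off SI organoids. Low counts limit what can be read for Ccn2, Wwtr1 and Ankrd1 in SI organoids and for Axl in all.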
